A study of Homo sapiens with 4 samples.

Results

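The collagen genes of UM1 cells, an established human line of tongue squamous cell carcinoma, were compared between cultures in normal glucose (5.6 mM, called low glucose in the sample labels) and high glucose (16.7 mM). The members were all genes whose symbol is COL, a number, A and a number, and which had at least 1 probe set annotated to that gene alone. The rule found 43 of the 18132 genes measured, read by 121 probe sets, and the brightest probe set of a gene, by its mean over the arrays, stands for it. Cells of both groups were the same unmodified line, grown for 7 days at the stated glucose level. RNA of 2 samples per group, labelled biological replicates, was hybridised to 4 Affymetrix arrays. Whether the replicates were separate cultures from the start is not stated beyond that label. The p-values therefore rest on the spread between arrays, which the test used here (limma) shares over genes, and not on a known spread between cultures. The methods name no other cell type in these cultures, and their purity was not tested. All values are log2 values from RMA (Robust Multi-array Analysis, which corrects background and normalises the arrays to each other), and a difference is high glucose minus normal glucose unless stated otherwise.

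Collagens are the main structural proteins of the extracellular matrix. Each molecule is a helix wound from alpha chains, and each chain is the product of its own gene. Fibril-forming collagens build the tensile fibres of connective tissue, type IV forms the sheet of the basement membrane on which epithelial cells rest, type VII anchors that sheet to the tissue below, and FACIT collagens (fibril-associated collagens with interrupted helices) decorate fibril surfaces. Tumour cells of squamous epithelium normally face type IV and type VII collagen, while fibroblasts are the usual source of types I, III and V.

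COL3A1, COL5A2, COL4A6 and COL4A1 rose by the largest amounts among the 43 collagen genes in high glucose, and COL9A3, COL21A1, COL24A1 and COL6A2 were lower. Of the 11 fibril-forming genes 7 were called higher and 1 lower, of the 6 type IV genes 4 were higher and 0 lower, and of the 10 FACIT genes 2 were higher and 2 lower. Of the 43 genes, 18 were called higher and 4 lower at an adjusted p under 0.05, and 21 were not called (limma, Benjamini-Hochberg over all 18132 genes). Over all genes, 15.5% were called higher and 22.2% were called lower. The median difference was 0.15 over the collagen genes and -0.03 over all genes. Among the called genes, 15 collagen genes were higher and 3 were lower by more than 2-fold, against 6.38% and 5.48% of all genes. The arrays of the groups did not overlap for 25 genes that lay higher and 6 that lay lower in high glucose, while 27.5% and 37.3% of all genes had arrays apart in these directions. Of the 43 genes, 20 lay above the array median (5.01 to 5.07) on both arrays of at least 1 group, and 8 were at or under the 25th percentile (3.26 to 3.32) on all arrays, a level close to the array background.

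**Figure D1:**
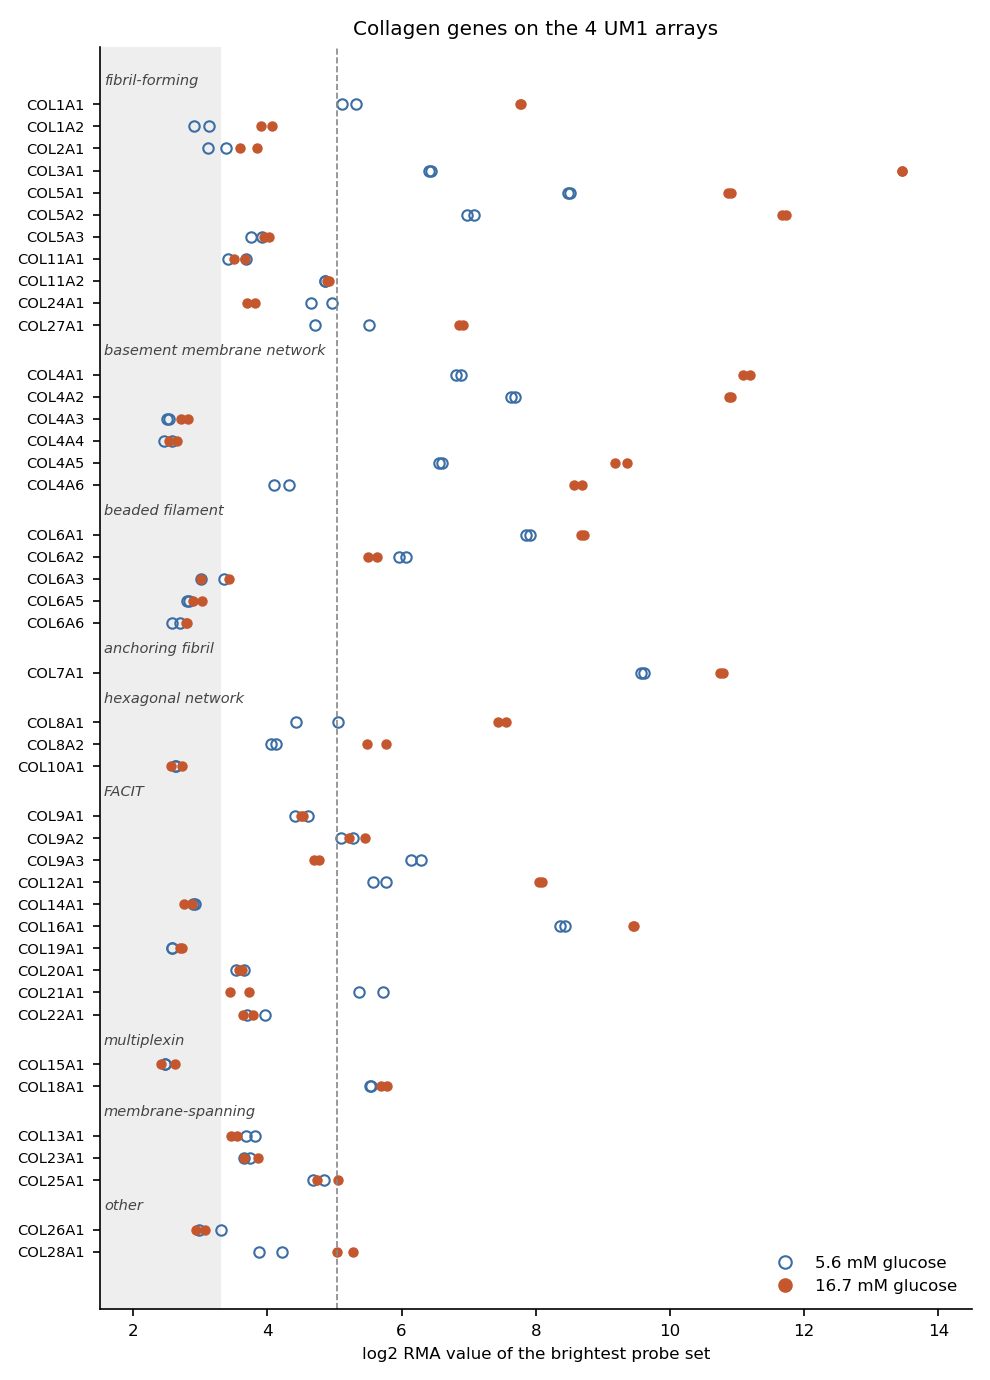
Log2 RMA value (x axis) of the brightest probe set of the 43 collagen genes (y axis, by class) on each of the 4 arrays, open circles for 5.6 mM and filled circles for 16.7 mM glucose. The grey band ends at the mean 25th percentile and the dashed line marks the mean array median; COL3A1 moved from 6.41 and 6.44 to 13.45 and 13.46, whereas genes in the grey band on all arrays showed no called difference.

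The largest difference belonged to a fibril-forming collagen. COL3A1, whose chain forms type III collagen by itself and accompanies type I in distensible tissues such as vessel walls, had values of 6.44 and 6.41 in normal glucose and 13.46 and 13.45 in high glucose. The replicate arrays lay 0.04 and 0.01 apart within the groups. Its difference of 7.03 (SE 0.0829, adjusted p = 5.49e-06 from limma) ranked 1 among the 18132 genes. All 5 of its probe sets were called higher, with differences from 6.62 to 7.77. In RNA from whole cultures, more cells that make COL3A1 and more COL3A1 RNA per cell cannot be told apart, and this holds for each gene described here.

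COL5A2, the second chain of type V collagen, was at 7.08 and 6.98 in normal glucose and 11.66 and 11.73 in high glucose. It was 25.4-fold higher (log2 difference 4.67, SE 0.0896, adjusted p = 5.56e-06 from limma). This probe set was the brightest over the 4 arrays through its high glucose values. Another set, brighter in normal glucose at 7.34 and 7.32, rose 12.8-fold, so the fold depends on the probe set. All 6 probe sets of COL5A2 were called higher. COL5A2 is the neighbour of COL3A1 on chromosome 2, with 0 protein-coding genes between them. COL5A1, the first chain of type V, which helps to start fibrils and limits their width, was at 8.51 and 8.48 in normal glucose and 10.92 and 10.86 in high glucose. Its groups were apart by 5.24-fold (log2 difference 2.39, SE 0.0844, adjusted p = 1.69e-05 from limma), and its 4 probe sets differed by 2.39 to 2.76. The remaining type V gene, COL5A3, was at 3.92 and 3.76 in normal glucose and 4.03 and 3.95 in high glucose. It lay below the array median on all arrays and was not called (log2 difference 0.15, adjusted p = 0.300 from limma).

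The chains of type I collagen, the main protein of bone, tendon and dermis, were both called higher. COL1A1 was at 5.33 and 5.12 in normal glucose and 7.79 and 7.76 in high glucose, a rise of 5.86-fold (log2 difference 2.55, SE 0.103, adjusted p = 2.52e-05 from limma). COL1A2, its usual partner, was at 3.14 and 2.91 in normal glucose and 4.07 and 3.90 in high glucose. On this probe set both normal glucose values lay under the 25th percentile of their arrays. The rise on this set is therefore given as at least 1.63-fold, measured against that percentile (fitted log2 difference 0.96, adjusted p = 0.00147 from limma). COL1A2 stayed below the array median in high glucose too, on each of its 6 probe sets. Of these, 4 were called higher and 2 were not called, with differences from 0.13 to 0.96. The set brightest in normal glucose, at 3.22 and 3.48, differed by 0.19 (adjusted p = 0.287, limma over probe sets), so the fold depends on the probe set.

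Of the other fibril-forming genes, COL27A1 and COL2A1 were called higher and COL24A1 lower. COL27A1, a fibrillar collagen of cartilage and some epithelia, was at 5.52 and 4.71 in normal glucose and 6.85 and 6.92 in high glucose. It was 3.41-fold higher (log2 difference 1.77, SE 0.254, adjusted p = 0.00284 from limma), with normal glucose arrays 0.81 apart. COL24A1, a related fibrillar collagen, was at 4.96 and 4.65 in normal glucose and 3.82 and 3.69 in high glucose. It was lower by a factor of 2.07 (log2 difference -1.05, SE 0.127, adjusted p = 0.00145 from limma), and both of its probe sets were called lower. The cartilage genes COL11A1 and COL11A2 differed by 0.03 and 0.05 and were not called. COL2A1, the cartilage collagen, was called at a difference of 0.46 (adjusted p = 0.0419 from limma) with high glucose values of 3.84 and 3.59, and this call ended on leaving out any 1 array (adjusted p of 0.0651 to 0.215).

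**Figure D2:**
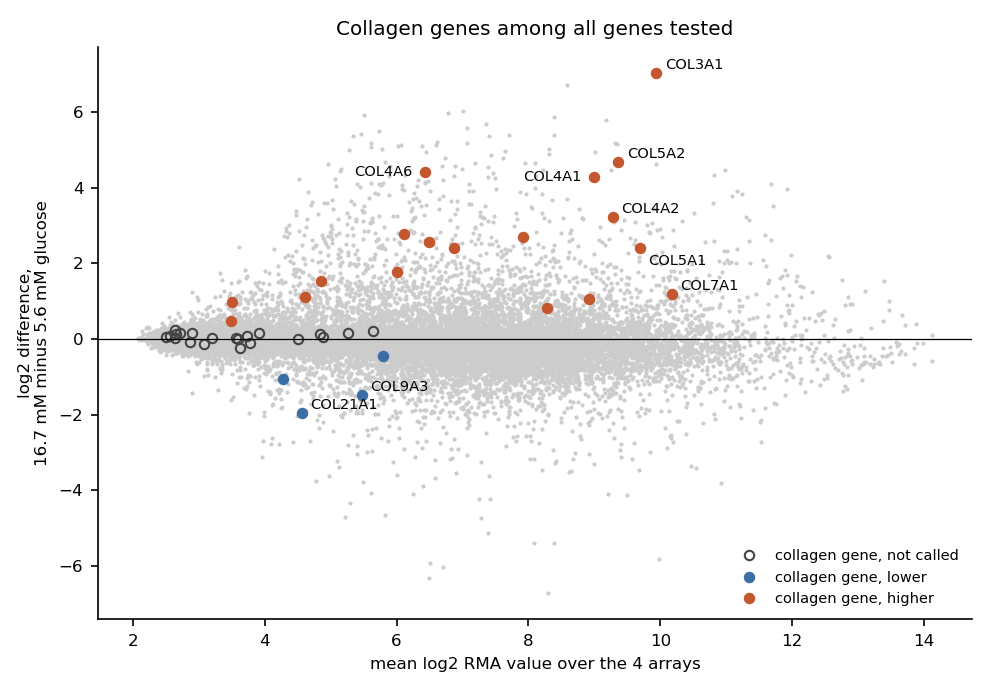
Log2 difference between 16.7 mM and 5.6 mM glucose (y axis) against the mean log2 RMA value over the 4 arrays (x axis) for 18132 genes in grey and the 43 collagen genes in colour (called at an adjusted p under 0.05, limma) or as open circles (not called). COL3A1 has the highest difference of any gene, 7.03, and the collagen genes not called lie between -0.25 and 0.25.

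Type IV collagen genes stand in head-to-head pairs, in which the genes of a pair are read away from each other from a short shared stretch. The stretches between the annotated gene starts are shown here because the members of a pair can be compared across them. They were taken from the RefSeq promoter windows (GRCh38.p14), which matched 31 of the 43 genes by symbol. All are printed on the plus strand, and capitals mark CCAAT and GGGCGG on either strand (ATTGG and CCGCCC), the letters of the CCAAT box and the GC box.
COL4A1 and COL4A2 (chr13:110307158-110307283, whole gap of 126 bases): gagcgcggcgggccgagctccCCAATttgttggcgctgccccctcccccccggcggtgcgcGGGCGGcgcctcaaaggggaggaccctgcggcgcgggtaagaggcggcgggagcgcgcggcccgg
COL4A6 and COL4A5 (chrX:108439588-108439837, the 250 bases of the 379-base gap next to COL4A5): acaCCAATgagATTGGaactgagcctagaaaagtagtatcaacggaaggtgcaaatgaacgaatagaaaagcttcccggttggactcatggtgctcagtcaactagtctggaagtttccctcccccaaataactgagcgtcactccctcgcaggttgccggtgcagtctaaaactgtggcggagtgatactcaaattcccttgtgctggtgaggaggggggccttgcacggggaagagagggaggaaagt
COL4A4 and COL4A3 (chr2:227164489-227164623, whole gap of 135 bases): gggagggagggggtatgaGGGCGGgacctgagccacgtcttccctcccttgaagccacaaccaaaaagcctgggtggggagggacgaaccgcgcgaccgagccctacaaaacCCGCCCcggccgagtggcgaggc

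These stretches differ in composition. G and C make up 80.2% of the bases between COL4A1 and COL4A2, 51.2% of those beside COL4A5 and 68.2% of those between COL4A4 and COL4A3. The first stretch holds 1 CCAAT and 1 GGGCGG, the second 2 CCAAT and 0 GGGCGG, and the third 0 CCAAT and 2 GGGCGG, with no overlap between the matches. TATAAA, searched on both strands, was found in 0 of the 3. In windows of 126 bases next to the starts of all 35116 promoter entries, 34.6% hold GGGCGG, 21.1% CCAAT and 5.87% TATAAA. In windows of 250 bases the shares are 42.6%, 32.0% and 10.7%, and in windows of 135 bases 35.6%, 22.1% and 6.13%. A match describes letters and is not a measured binding site.

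The pairs of type IV genes divided clearly by expression. The chains of COL4A1 and COL4A2 form the type IV collagen found in nearly all basement membranes. COL4A1 was at 6.81 and 6.89 in normal glucose and 11.09 and 11.19 in high glucose, and was 19.6-fold higher (log2 difference 4.29, SE 0.0902, adjusted p = 5.56e-06 from limma). COL4A2 was at 7.70 and 7.64 in normal glucose and 10.88 and 10.90 in high glucose, and was 9.34-fold higher (log2 difference 3.22, SE 0.0845, adjusted p = 7.53e-06 from limma). Both partners therefore rose, with no overlap between groups. Whether their changes differ from each other was not tested, since different probe sets can respond differently.

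The second pair, on the X chromosome, encodes chains that occur together in the basement membranes of skin and other stratified epithelia. COL4A5 was at 6.61 and 6.55 in normal glucose and 9.36 and 9.18 in high glucose, and was 6.44-fold higher (log2 difference 2.69, SE 0.0997, adjusted p = 2e-05 from limma). On the probe set used, COL4A6 was at 4.33 and 4.11 in normal glucose, below the array medians. In high glucose it was at 8.57 and 8.69. It was 21.3-fold higher (log2 difference 4.41, SE 0.111, adjusted p = 6.79e-06 from limma). All 7 probe sets of COL4A6 were called higher. The set used was brightest over the 4 arrays through its high glucose values. Another set was brighter in normal glucose, at 5.37 and 5.64, above the array medians. That set rose 1.61-fold, to 6.12 and 6.26, so the level and the fold depend on the probe set. The third pair, COL4A3 and COL4A4, encodes chains known from the filter membrane of the kidney. Their values were 2.46 to 2.82 on the 4 arrays, under the 25th percentile of each, and neither gene was called (adjusted p = 0.0785 and 0.603 from limma).

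**Figure D3:**
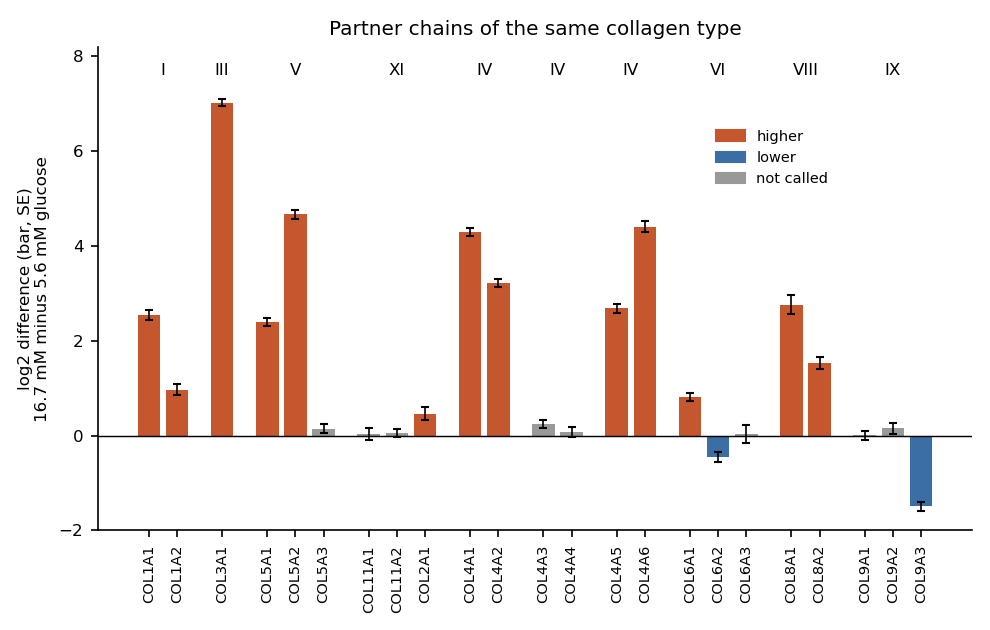
Log2 difference between 16.7 mM and 5.6 mM glucose (y axis; bar, brightest probe set; error bar, SE from limma; n = 2 arrays per group) for chains (x axis) grouped by collagen type, given above the bars. Both chains of the pairs COL4A1 with COL4A2 and COL4A5 with COL4A6 were called higher, COL4A3 and COL4A4 were not called, and COL6A1 and COL6A2 lie on opposite sides of 0.

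COL7A1 encodes the sole chain of type VII collagen, which forms the anchoring fibrils under stratified epithelium and is made by keratinocytes. It was at 9.62 and 9.56 in normal glucose and 10.80 and 10.74 in high glucose. The rise of 2.26-fold (log2 difference 1.18, SE 0.0854, adjusted p = 0.000206 from limma) rests on 1 probe set. The gene was above the array medians in both groups, and the groups did not overlap.

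Of the chains of type VI collagen, which forms beaded filaments around cells, COL6A1 was called higher and COL6A2 lower, each with uneven probe sets. COL6A1 was at 7.91 and 7.85 in normal glucose and 8.67 and 8.71 in high glucose, and was 1.75-fold higher (log2 difference 0.81, SE 0.0851, adjusted p = 0.000839 from limma). Of its 6 probe sets, 3 were called higher and 3 were not called, with differences from -0.11 to 0.81, and their mean gave a difference of 0.42 (adjusted p = 0.00864 from limma). Its neighbour on chromosome 21, COL6A2, was at 6.07 and 5.96 in normal glucose and 5.50 and 5.63 in high glucose. COL6A2 was lower by a factor of 1.36 (log2 difference -0.45, SE 0.0970, adjusted p = 0.0142 from limma). This call rested on 1 of 4 probe sets, an _x_at set, whose probes can bind other transcripts; the next brightest probe set differed by -0.08 (adjusted p = 0.720, limma over probe sets). The call also ended without normal glucose replicate 1, normal glucose replicate 2 or high glucose replicate 1 (adjusted p of 0.0526 to 0.0907 from limma). COL6A3, which encodes the large chain of type VI, had values from 3.01 to 3.43 and was not called, and COL6A5 and COL6A6 were under the 25th percentile on all arrays.

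Type VIII collagen forms hexagonal networks in vessel walls and in the basement membrane of the corneal endothelium. COL8A1 was at 4.42 and 5.05 in normal glucose and 7.56 and 7.44 in high glucose, and was 6.80-fold higher (log2 difference 2.77, SE 0.206, adjusted p = 0.000227 from limma). COL8A2 was at 4.05 and 4.12 in normal glucose and 5.48 and 5.77 in high glucose, and was 2.90-fold higher (log2 difference 1.54, SE 0.120, adjusted p = 0.000271 from limma). Both genes rose from below or near the array median to above it. COL10A1, a network collagen of cartilage, had values of 2.57 to 2.73 and was not called.

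FACIT collagens included 2 genes called higher and 2 called lower of 10 (20% each), shares near the 15.5% and 22.2% of all genes. The median difference of the class was 0.003. COL12A1, which coats fibrils in tissues under tension, was at 5.77 and 5.57 in normal glucose and 8.10 and 8.05 in high glucose, and was 5.28-fold higher (log2 difference 2.40, SE 0.102, adjusted p = 2.98e-05 from limma). COL16A1, found near basement membranes of skin, was at 8.44 and 8.35 in normal glucose and 9.45 and 9.46 in high glucose. Its rise was 2.09-fold (log2 difference 1.06, SE 0.0858, adjusted p = 0.000312 from limma).

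The groups were apart for the falls in this class too. COL21A1 was at 5.37 and 5.72 in normal glucose and 3.44 and 3.73 in high glucose, and was lower by a factor of 3.90 (log2 difference -1.96, SE 0.159, adjusted p = 0.00031 from limma). All 3 of its probe sets were called lower, by log2 differences of -1.96 to -0.80. The set used is an _x_at set, and without such sets the difference was -1.25 (adjusted p = 0.000351 from limma). COL9A3, a chain of the cartilage collagen type IX, was at 6.14 and 6.29 in normal glucose and 4.69 and 4.76 in high glucose. It was lower by a factor of 2.80 (log2 difference -1.49, SE 0.0959, adjusted p = 0.000131 from limma) on its only probe set. Its partner chains COL9A1 and COL9A2 were not called, at differences of 0.01 and 0.16. Of the other FACIT genes, COL14A1 and COL19A1 were under the 25th percentile on all arrays, and COL20A1 and COL22A1 were between 3.54 and 3.96.

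In the remaining classes, COL28A1 alone was called. COL18A1, a basement membrane collagen whose end fragment is endostatin, was at 5.54 and 5.53 in normal glucose and 5.79 and 5.69 in high glucose. Its difference of 0.20 did not pass (adjusted p = 0.128 from limma), although the arrays did not overlap. COL15A1, of the same class, was under the 25th percentile of every array. The membrane-spanning genes COL13A1, COL23A1 and COL25A1 differed by -0.25, 0.06 and 0.13 and were not called. COL17A1, a membrane-spanning collagen of squamous epithelium, was not analysed here, so these 3 are not the whole class. Of the genes outside these classes, COL26A1 was not called, and COL28A1 was at 4.21 and 3.88 in normal glucose and 5.28 and 5.05 in high glucose, a rise of 2.17-fold (log2 difference 1.12, adjusted p = 0.00196 from limma). Beside the 15.5% of all genes called higher and the 22.2% called lower, the counts of the smaller classes were 1 higher and 1 lower of 5 type VI genes, 1 higher of 1 type VII gene, 2 higher of 3 hexagonal network genes, 0 called of 2 multiplexin genes, 0 called of 3 membrane-spanning genes and 1 higher of 2 other genes.

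Probe sets of a gene often differed in size of change, which bears on every fold given here. Of the 121 probe sets tested separately, 48 were called higher, 7 lower and 66 not, and 38 were under the 25th percentile on all arrays. The share called over all probe sets is not given here, so these counts are not set against a background. Of the 29 genes with several probe sets, 0 had probe sets called in both directions. The other 14 genes had 1 probe set each, which no second set can check. Among them were the called genes COL2A1, COL7A1, COL9A3, COL16A1, COL27A1 and COL28A1. COL12A1 had the widest range, 4.51 between its 4 probe sets, and its second brightest rose by 4.63 against 2.40 for the brightest. A pair of the COL1A1 probe sets rose by 2.55 each, while the others differed by 0.31, 0.11 and 0.32. The 6 probe sets of COL5A2 spread from 0.92 to 4.67, the 7 of COL4A6 from 0.69 to 4.41 and the 3 of COL4A1 from 0.41 to 4.29. The other 2 probe sets of COL8A1, under the 25th percentile on all arrays, differed by -0.10 and -0.11. With the median of a gene's probe sets in place of the brightest, COL8A1 stood at -0.09 (adjusted p = 0.567 from limma), COL1A1 at 0.31, COL5A2 at 2.32, COL4A1 at 3.48, COL4A6 at 3.02, COL8A2 at 0.76 and COL21A1 at -1.10, and COL3A1 at 7.77. Of these, COL8A1 alone lost its call. Which exons or transcript ends these probe sets read was not determined.

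**Figure D4:**
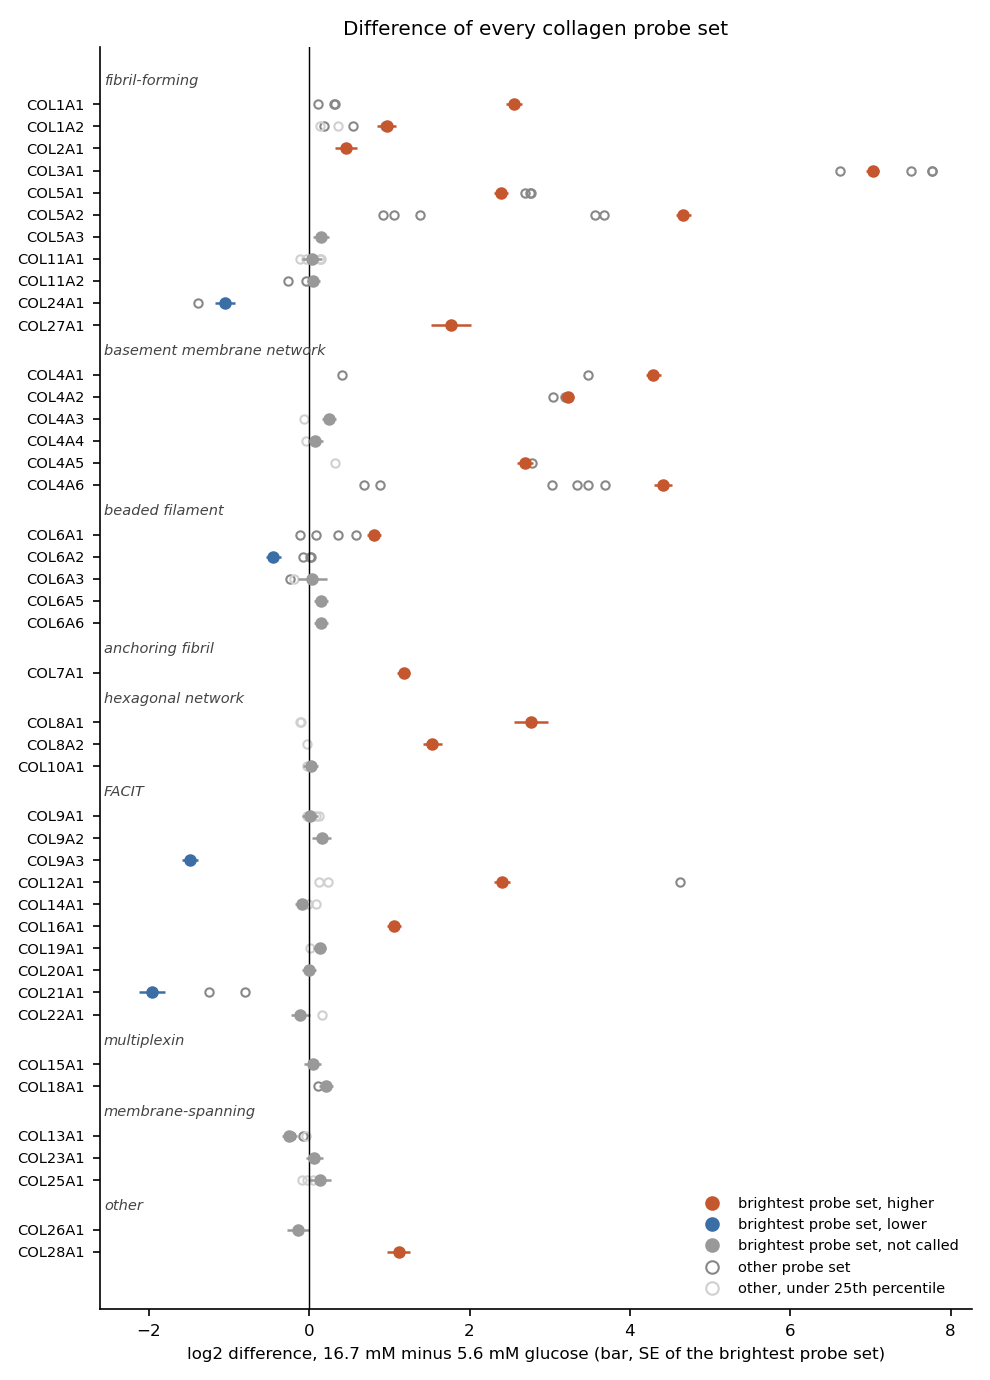
Log2 difference between 16.7 mM and 5.6 mM glucose (x axis) of each of the 121 collagen probe sets by gene (y axis), filled for the brightest probe set with its SE from limma and open for the others. The probe sets of COL3A1 all lie above 6.6, whereas those of COL1A1 fall into a pair at 2.55 and others near 0.

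Genes whose products make, export, bind and degrade collagen were listed by role, and each count is to be read beside the 15.5% of all genes called higher and the 22.2% called lower. Of 18 hydroxylation and folding genes, 9 (50.0%) were higher and 2 (11.1%) were lower. Those higher include P4HA3, which was under the 25th percentile on all arrays, close to the array background (adjusted p = 0.0437 from limma). P3H2, a prolyl hydroxylase that acts on type IV collagen, rose 3.77-fold, the lysyl hydroxylase PLOD2 2.35-fold and the collagen galactosyltransferase COLGALT1 2.30-fold, each at an adjusted p no higher than 0.000303 (limma). TMEM38B, an ion channel of the endoplasmic reticulum, was lower by a factor of 4.91 (adjusted p = 3.87e-05 from limma). Of 10 export genes, 1 (10.0%) was higher and 2 (20.0%) were lower, shares near those of all genes. MIA3 (TANGO1) and MIA2 (cTAGE5), which help to load bulky collagen into transport carriers, were lower by factors of 2.72 and 7.67, and SEC23A, a coat protein of these carriers, was 1.55-fold higher (adjusted p of at most 0.0042 from limma).

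Of 16 processing and crosslinking genes, 3 (18.8%) were higher, a share near that of all genes, and 1 (6.25%) was lower. LOXL2, an oxidase that crosslinks type IV collagen, was at 5.36 and 5.38 in normal glucose and 9.54 and 9.71 in high glucose. The proteinases BMP1 and TLL1, which trim procollagen ends, were higher by 2.16-fold and by at least 7.33-fold, while LOXL1, another oxidase, was lower by a factor of 1.89 (adjusted p of at most 0.000702 from limma). Of 14 receptor genes, 6 (42.9%) were higher and 1 (7.14%) was lower. Those higher included the syndecan SDC1 (8.48-fold), the integrin subunit ITGB1 (2.62-fold), the collagen-binding kinase DDR1 (1.87-fold) and CD44 (1.60-fold), each at an adjusted p no higher than 0.00208 (limma).

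Of 13 genes of collagen breakdown and its inhibitors, 8 (61.5%) were higher and 3 (23.1%) were lower, the latter a share near that of all genes. Those lower were the inhibitor TIMP1, by a factor of 3.16, and MMP15 and CTSK, by factors of 1.82 and 1.31. Their adjusted p ran from 6.27e-05 to 0.0187 (limma). The inhibitors TIMP3 and TIMP2 rose 2.06-fold and 1.77-fold. The collagenase MMP13 rose 10.4-fold, the gelatinases MMP2 and MMP9 rose 9.21-fold and 3.65-fold, and the surface protease FAP 62.6-fold (adjusted p of at most 0.000712 from limma). Of 16 fibril-associated matrix genes, 6 (37.5%) were higher and 0 were lower. SPARC, a collagen-binding protein, rose 21.9-fold, the thrombospondin THBS1 19.6-fold, the matrilin MATN2 14.1-fold and the fibronectin gene FN1 4.66-fold (adjusted p of at most 2.26e-05 from limma). Among these 16, the small proteoglycans LUM, OGN and KERA and the fibroblast protein DPT were under the 25th percentile on all arrays.

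Markers were read to check the label of the cells, and their counts stand beside the 15.5% of all genes called higher and the 22.2% called lower. Of 9 measured squamous epithelial markers, all lay above the array medians in a group, 8 (88.9%) were higher in high glucose and 1 (11.1%), EPCAM, was lower. The mean level of the 9 was 8.89 to 8.92 in normal glucose and 10.8 to 10.9 in high glucose. Of 12 fibroblast markers other than collagens, 2 (16.7%) were higher (FAP and PDPN), a share near that of all genes, and 0 were lower. Under the 25th percentile on all arrays were 7 (58.3%, against 15.9% of all genes), among them PDGFRA, THY1, LUM and POSTN. The mean level of the 12 was 3.67 to 3.71 in normal glucose and 4.43 to 4.48 in high glucose. FAP and PDPN differed by 5.97 and 3.11, the other 10 were not called, and the median difference of the list was 0.09. Of 8 endothelial markers 2 were higher (ERG and TEK), and of 7 leukocyte and 3 Schwann cell and melanocyte markers 0 were called. For the beta-actin control, the 3' minus 5' signal was 0.71 and 0.74 on the normal glucose arrays and 0.35 and 0.42 on the high glucose arrays. For the GAPDH control it was 0.24 and 0.13 against 0.08 and 0.12, so that the replicate 2 arrays, at 0.13 and 0.12, were nearly level. The part of RNA quality in the collagen differences was not tested. Arrays of a group correlated at r = 0.997 and 0.996 and arrays of different groups at 0.946 to 0.947 across probe sets, which do not count as replicates.

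At the fold and unadjusted p thresholds that the methods name, limma gave 17 collagen genes higher and 3 lower, where 10.6% and 13.4% of all genes passed. For a single gene, the smallest two-sided exact permutation p with 2 arrays per group is 0.333, and limma makes its calls by borrowing the spread of other genes. The methods' t-test, which does not, called 12 collagen genes higher and 1 lower (COL9A3) after Benjamini-Hochberg adjustment. It left COL8A1, COL8A2, COL27A1, COL28A1, COL1A2 and COL2A1 and the falls of COL21A1, COL24A1 and COL6A2 without a call (adjusted p of 0.0523 to 0.256 from that test).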

How the data were processed

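RNA of 4 UM1 samples was measured on Affymetrix arrays. Per the labels and methods, GCOS and RMA (versions not given in the sources used here) gave the deposited log2 values per probe set, which the authors had thereby background-corrected and normalised between arrays. The methods name the U133 Plus 2.0 array, but the 49395 probe set identifiers are those of PrimeView, whose annotation was used. Of them, 44988 were annotated to 1 gene, and symbols were updated by gene identifier (GRCh38.p14). The brightest probe set on average over the 4 arrays represented each gene.

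High and normal glucose were compared with limma 3.58.1 in R 4.3.3 (lmFit, eBayes) and Benjamini-Hochberg adjustment over 18132 genes. The number of arrays limits the precision. Genes above the array median on both arrays of a group are named with their values, and their partner chains with values or ranges. Up to 4 called genes per role list with the largest difference are also named. For the breakdown list, the lower genes and the inhibitors are named too. In the folding and fibril-associated lists, so are the genes under the 25th percentile on all arrays. Where no array of a group exceeded its 25th percentile, folds are given as at least the value against that percentile. Members and lists were chosen with earlier results of these data known. The procedure was run on simulated data with 200 changed genes, far fewer than the 2808 called higher and 4023 called lower here. That run therefore does not measure the error rate of these calls. Alternatives were other probe set summaries, filters, floors, normalizations, variance models, the methods' t-test and thresholds, a replicate block and each array left out. Tables used pandas 2.3.3 and Python 3.11.15.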

Additional observations from a re-analysis of the deposited data

How the results depend on the processing

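The counts of collagen genes called were 18 higher and 4 lower. They were 17 higher and 3 to 4 lower when each array was left out in turn, where an arm with 1 array is assumed to vary like the other. For all genes the ranges were 2064 to 2114 higher and 2718 to 2848 lower, and for the 87 role-list genes 28 to 30 higher (33 with all arrays) and 7 to 8 lower (9 with all arrays). The methods' t-test after Benjamini-Hochberg adjustment called 12 collagen genes higher and 1 lower, COL9A3, and 1347 and 1667 of all genes. The methods' thresholds gave 2433 of all genes lower, against 4023. With the replicate block, 17 collagen genes were higher and 4 lower, COL2A1 losing its call (adjusted p = 0.112 from limma). Deviations of arrays with the same replicate number from their group means correlated at r = -0.00457 across genes. With 2 arrays per group this is a single value, which cannot tell whether arrays of the same number were handled together. Under every alternative, 12 of the 18 higher and 1 of the 4 lower collagen genes kept their call where they were tested. The lower gene, COL9A3, has 1 probe set, so other probe set summaries could not change its difference. COL8A1 turned to a difference of -0.0901 with the median of its probe sets, 2 of 3 of which were dim; COL6A2 lost its call in the mean, median and _x_at alternatives. Low signal limits the genes near the array background, where a change can be understated.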
